A study of Mus musculus with 20 samples.

Results

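Tmem100, an endothelial membrane protein, and 9 genes of the bone morphogenetic protein (BMP) pathway around it were followed in mouse ventricle under estrogen treatment. The 10 genes are Bmp4 and Bmp6 (ligands), Acvrl1, Eng and Bmpr2 (receptors), Smad6 and Smad7 (inhibitors inside the cell), Id1 and Id3 (target genes) and Tmem100, taken by name from 18193 genes with an unambiguous probe set. Tmem100 was chosen by its measured values, because it is low with 17β-estradiol in these same arrays, so its values in that comparison are a description and carry no test. All 10 genes lay above the expression filter and were among 12082 genes tested.

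BMP ligands bind a pair of type I and type II receptors on the cell surface, and the activated type I receptor phosphorylates Smad proteins that carry the signal to the nucleus. In endothelium the type I receptor is mainly ALK1, the product of Acvrl1, which works with the co-receptor endoglin (Eng) and the type II receptor encoded by Bmpr2, and defects in these receptors cause vascular malformations or pulmonary hypertension. Tmem100 is induced downstream of ALK1 in mouse endothelium and is needed there for vessel formation in the embryo. Id1 and Id3, which hold back basic helix-loop-helix transcription factors, are immediate targets of the Smads, and Smad6 and Smad7 are induced by the same signal and feed back on the receptors.

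The 20 arrays came from heart ventricle of female C57BL/6 mice, 5 arrays in each of 4 groups. All mice were ovariectomized at 8 weeks of age, after which little estrogen circulates, and carried a minipump for 4 weeks, so every group lacks its ovaries and no intact animal was compared. The pumps delivered 16α-LE2 (an agonist of estrogen receptor α), 17β-estradiol (E2, an agonist of both classical estrogen receptors) or placebo. The last group of 5 is titled beta although its treatment label says control solution, and it is called beta-titled here and kept apart from placebo. The labels state no dose. The labels do not say that each array is a separate animal, so p-values measure the spread between these samples, which may be technical.

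The arrays resembled each other with Spearman correlations of 0.958 to 0.992 over the tested genes, except E2 replicate 33, whose correlations with the other 19 arrays were 0.882 to 0.923. That array was the lowest of all 20 for 7 of the 10 genes, namely Tmem100, Bmpr2, Bmp4, Smad6, Smad7, Id1 and Id3. The larger differences that rest on the E2 group are therefore also given without this array. The tissue label was checked against markers. Myl2, the ventricular myosin light chain, averaged 14.65 to 14.82 log2 units in the 4 groups, and 4 of 5 lung markers lay below the filter in these libraries. Lung was checked because it is a tissue rich in Tmem100.

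Tmem100 was low in the hearts of E2-treated mice. The deposited log2 values were 8.78, 9.37, 9.35, 9.55 and 9.60 with 16α-LE2, and 8.80, 9.18, 8.74, 8.85 and 8.78 with E2. They were 8.96, 9.48, 9.51, 9.67 and 9.69 in the beta-titled group and 9.48, 9.70, 9.70, 9.64 and 9.50 with placebo. Every E2 array lay below every placebo array, whereas the 16α-LE2 and beta-titled groups each held 1 low array beside 4 that lay at 9.35 or above. Group means were 9.33 ± 0.33 with 16α-LE2, 8.87 ± 0.18 with E2, 9.46 ± 0.30 in the beta-titled group and 9.60 ± 0.11 with placebo (SD, n = 5 each).

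The E2 mean was 0.73 log2 units below placebo, which is 1.66-fold, and the difference was -0.70 without E2 replicate 33. Tmem100 was the only one of the 10 genes whose E2 and placebo arrays did not overlap, and 0.877% of all tested genes had such a gap. Since this comparison chose the gene, nothing is read from that count. The 16α-LE2 mean differed from placebo by -0.27 and the beta-titled mean by -0.14 log2 units, and these comparisons share the placebo arrays that took part in the choice. In whole ventricle, fewer endothelial cells and less Tmem100 RNA per cell cannot be told apart.

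In the comparison of 16α-LE2 with the beta-titled group, the means hold neither E2 nor placebo arrays, although the gene was chosen with all groups known. There the difference was -0.13 ± 0.14 log2 units (SE), with a 95% interval of -0.43 to 0.17, an unadjusted p of 0.378 and an adjusted p of 1 in limma. The low array in each group decided the size of this difference. It was 0.01 without 16α-LE2 replicate 29 and -0.25 without beta-titled replicate 31. The SE, interval and p do use the E2 and placebo arrays, because limma estimated the spread over all groups. The SD of Tmem100 was 0.33 with 16α-LE2 and 0.30 in the beta-titled group, against 0.18 with E2 and 0.11 with placebo. The interval may therefore be too narrow, and it is not independent of the choice of the gene.

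Among the 15 arrays of the other groups, 2 lay at or below the highest E2 value of 9.18. These were 16α-LE2 replicate 29 at 8.78 and beta-titled replicate 31 at 8.96, and the lowest of the remaining arrays was at 9.35. Within the E2 group the highest value, 9.18 in replicate 30, stood apart from the other 4, which lay between 8.74 and 8.85. The plot of all 10 genes by array shows these points.

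**Figure D1:**
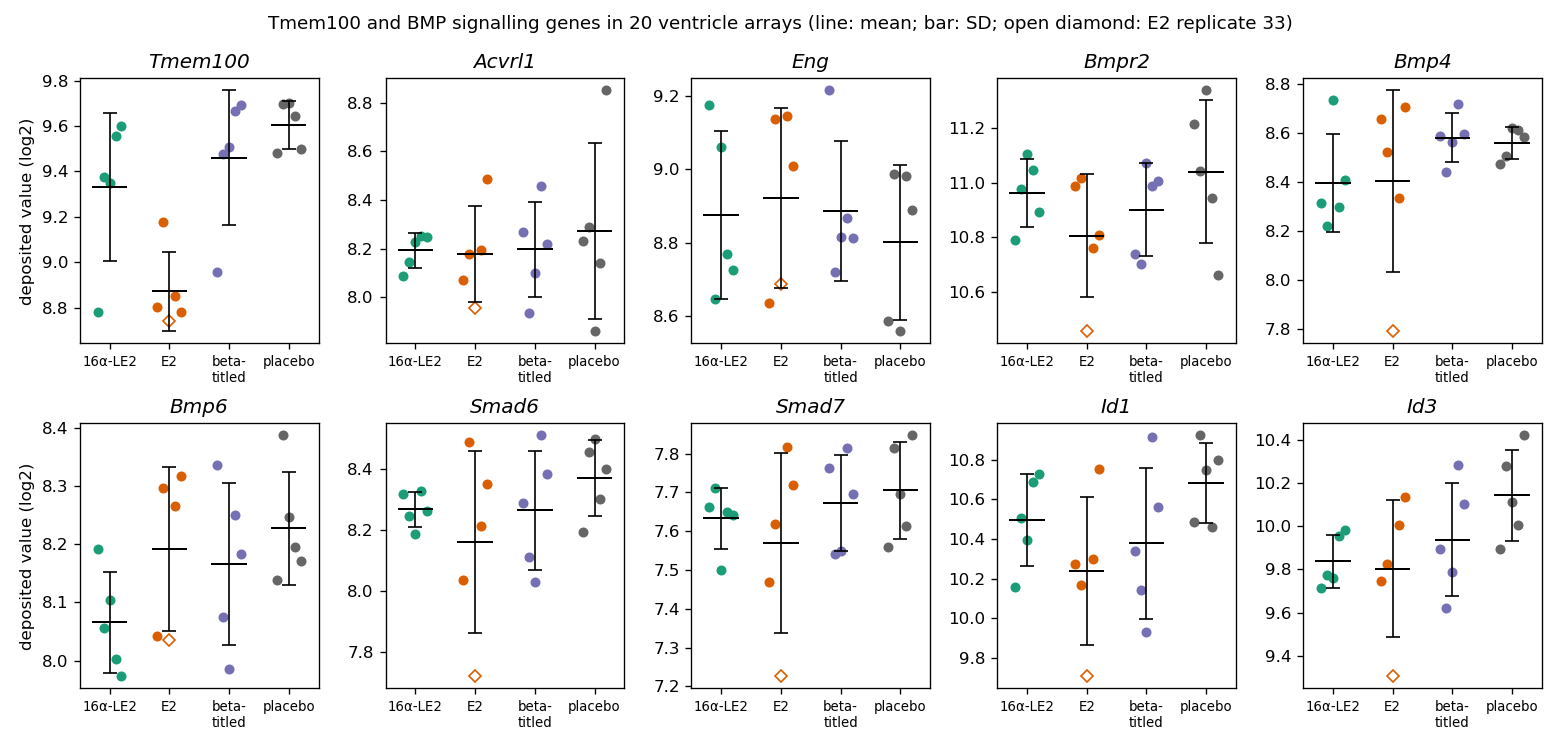
Deposited log2 value (y axis) of each of the 10 genes in the 20 arrays, with 16α-LE2, E2, beta-titled and placebo from left to right, each point an array, the line the mean and the bar the SD of 5 arrays. The open diamond is E2 replicate 33. Tmem100 lies at 8.74 to 9.18 with E2, against 9.48 to 9.70 with placebo, and the other 9 genes overlap between all groups shown.

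A second Tmem100 probe set, 1446625_at, did not show the gap. Its mean over all arrays was 7.02, just above the filter at 6.93, against 9.32 for the main probe set, 1449533_at. It averaged 7.08 ± 0.20 with E2 and 6.99 ± 0.06 with placebo (SD, n = 5 each), a difference of 0.09 log2 units, with E2 replicate 33 highest at 7.42. Without that array the difference was 0.00. Averaging both probe sets gave an E2 difference from placebo of -0.32. Which transcripts each probe set detects was not tested.

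The genes whose values ran most like Tmem100 over the 20 arrays were Sfpq, Ell2, Cpeb4, 1810013L24Rik and Dnaja1. Pearson r with Tmem100 was 0.93 for Sfpq, an RNA-binding splicing factor, 0.85 for Ell2, a transcription elongation factor, and 0.84 for Cpeb4, a regulator of mRNA polyadenylation. It was 0.82 for 1810013L24Rik and 0.82 for Dnaja1, a heat shock co-chaperone. The arrays share group and scaling, and r stayed at 0.69 to 0.84 for these 5 genes after group means were subtracted. These genes were named because their r is high, so the values are a description.

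The arrays that were low for Tmem100 outside the E2 group were also low for these genes. That follows from choosing the genes by r over the same arrays, so it is a description. Sfpq was at 8.30 in 16α-LE2 replicate 29, against 8.62 to 9.07 in the other 4 arrays of that group, and at 8.49 in beta-titled replicate 31, against 8.83 to 8.97 in the other 4. Ell2 was at 8.55 in 16α-LE2 replicate 29 and at 8.39 in beta-titled replicate 31, the lowest value in each group. Dnaja1 was at 9.91 in beta-titled replicate 31, where replicate 32 was lower at 9.90. The genes most opposed to Tmem100 were Dnmt1 (r = -0.81), the maintenance DNA methyltransferase, Ptpn6 (r = -0.78), a phosphatase of blood cells, Hps1 (r = -0.78), Zdhhc8 (r = -0.75) and Plekhm1 (r = -0.75). Over all tested genes the median r with Tmem100 was 0.06, and the 5th and 95th percentiles were -0.47 and 0.58.

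The other 9 genes followed Tmem100 less closely over the same arrays. Pearson r was 0.56 for Bmpr2, 0.55 for Id1, 0.50 for Id3 and 0.46 for Smad6. These lay at percentiles 93.9, 93, 89.9 and 86.6 of r over all tested genes. After group means were subtracted, r was 0.47, 0.39, 0.32 and 0.29 for these genes in that order. With group means kept, r was 0.32 for Bmp4, 0.30 for Smad7, 0.11 for Acvrl1 and -0.09 for Bmp6, and -0.36 for Eng. Without E2 replicate 33 and with group means kept, r for Bmpr2, Id1, Id3 and Smad6 was 0.46, 0.44, 0.38 and 0.30. Bmp4 and Smad7 were each at 0.07.

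The ligands differed little between groups. Bmp4, which is made by several cell types of the heart and acts through Smad1 and Smad5, averaged 8.40 ± 0.20 with 16α-LE2, 8.40 ± 0.37 with E2, 8.58 ± 0.10 in the beta-titled group and 8.56 ± 0.07 with placebo (SD, n = 5 each). The difference from placebo was -0.16 ± 0.13 (SE) both with 16α-LE2 (limma, adjusted p = 0.773) and with E2 (limma, adjusted p = 0.561). The E2 value came from a single array, replicate 33 at 7.79, without which it was -0.00. The remaining E2 arrays lay at 8.34 to 8.71 and the placebo arrays at 8.48 to 8.62.

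Bmp6, a ligand that endothelial cells release and that is best known for its control of iron balance in liver, was at 7.97 to 8.19 with 16α-LE2, 8.04 to 8.32 with E2, 7.99 to 8.34 in the beta-titled group and 8.14 to 8.39 with placebo. Of the 5 16α-LE2 arrays, 4 lay below the lowest placebo array and 1 above it, so the groups overlapped by that array. The difference from placebo was -0.16 ± 0.08 (SE) with 16α-LE2 (limma, adjusted p = 0.58) and -0.04 ± 0.08 with E2 (limma, adjusted p = 0.84).

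The receptors showed no difference larger than the spread between arrays. Acvrl1 (ALK1) averaged 8.19 ± 0.07 with 16α-LE2, 8.18 ± 0.20 with E2, 8.20 ± 0.20 in the beta-titled group and 8.27 ± 0.36 with placebo (SD, n = 5 each). Its placebo arrays ran from 7.86 to 8.85, the widest spread of the 4 groups, with replicate 36 at the top. Without that array the 3 differences from placebo turned from -0.08, -0.10 and -0.08 to 0.06, 0.05 and 0.07 for 16α-LE2, E2 and the beta-titled group in that order. Its second probe set, which lay below the filter, gave 0.04, -0.07 and 0.10.

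Eng, the co-receptor that presents ligand to ALK1, was the only gene of the 10 with a higher mean than placebo in all 3 other groups. It averaged 8.88 ± 0.23 with 16α-LE2, 8.92 ± 0.25 with E2, 8.89 ± 0.19 in the beta-titled group and 8.80 ± 0.21 with placebo. The differences of 0.07, 0.12 and 0.09 were within 1 SD of any group, and the first was -0.01 with array weights. Its second probe set gave 0.06, 0.08 and 0.00. The E2 difference was 0.18 at the main probe set and 0.16 at the second without E2 replicate 33.

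Bmpr2, the type II receptor whose loss underlies heritable pulmonary hypertension, averaged 10.96 ± 0.12 with 16α-LE2, 10.81 ± 0.23 with E2, 10.90 ± 0.17 in the beta-titled group and 11.04 ± 0.26 with placebo. The E2 difference from placebo was -0.23 ± 0.13 (SE; limma, adjusted p = 0.499) and was -0.15 without E2 replicate 33. Of its other probe sets, which lay below the filter, 1419616_at gave -0.19 and 1441652_at gave 0.08 for the same comparison.

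Both inhibitory Smads had their lowest mean with E2 and their highest with placebo, within the spread between arrays. Without E2 replicate 33 the E2 mean was no longer the lowest. It was 8.27 for Smad6, against 8.26 in the beta-titled group, and 7.66 for Smad7, against 7.63 with 16α-LE2. Smad6, which blocks BMP type I receptors and their Smads and is enriched in endothelium, averaged 8.27 ± 0.06 with 16α-LE2, 8.16 ± 0.30 with E2, 8.26 ± 0.20 in the beta-titled group and 8.37 ± 0.12 with placebo (SD, n = 5 each). The E2 difference was -0.21 ± 0.11 (SE; limma, adjusted p = 0.499) and -0.10 without replicate 33, which stood at 7.72. Smad7, which also blocks the TGF-β receptor, differed from placebo by -0.07 with 16α-LE2, -0.14 with E2 and -0.03 in the beta-titled group. Its E2 value was -0.05 without replicate 33. A second Smad7 probe set gave -0.01, -0.21 and -0.04, and -0.07 for E2 without replicate 33.

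Apart from Tmem100, the target genes Id1 and Id3 had the largest differences from placebo in each of the 3 other groups. Id1 values were 10.16, 10.51, 10.40, 10.69 and 10.73 with 16α-LE2 and 10.27, 10.17, 9.71, 10.30 and 10.75 with E2. They were 10.34, 10.14, 9.93, 10.92 and 10.56 in the beta-titled group and 10.48, 10.92, 10.75, 10.46 and 10.80 with placebo. In the E2 group 4 of 5 arrays lay below the lowest placebo array, and the highest E2 array lay inside the placebo range. The beta-titled arrays spread over 0.98 log2 units, reaching from below the lowest placebo array to the level of the highest.

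For Id1 the difference from placebo was -0.19 ± 0.18 (SE) with 16α-LE2 (limma, adjusted p = 0.84). It was -0.44 ± 0.18 with E2 (1.36-fold lower mean; limma, unadjusted p = 0.0191, adjusted p = 0.499) and -0.30 ± 0.18 in the beta-titled group (limma, adjusted p = 0.707). Without E2 replicate 33 the E2 difference was -0.31 (limma, unadjusted p = 0.0848). E2 minus beta-titled was -0.14 with a 95% interval of -0.50 to 0.22, and -0.01 (-0.36 to 0.35) without that array.

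Id3 values were 9.71, 9.78, 9.76, 9.95 and 9.98 with 16α-LE2 and 9.74, 9.83, 9.30, 10.01 and 10.14 with E2. They were 9.90, 9.62, 9.79, 10.28 and 10.10 in the beta-titled group and 9.89, 10.28, 10.11, 10.01 and 10.42 with placebo. In each of the 16α-LE2 and E2 groups 3 of 5 arrays lay below the lowest placebo array, and the groups overlapped. The difference from placebo was -0.31 ± 0.14 (SE) with 16α-LE2 (1.24-fold lower mean; limma, unadjusted p = 0.0429, adjusted p = 0.538) and -0.34 ± 0.14 with E2 (1.26-fold lower mean; limma, unadjusted p = 0.0261, adjusted p = 0.499). The E2 value was -0.21 without replicate 33, and the beta-titled group differed from placebo by -0.20.

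The 250 bases before the Id3 start are shown because Id3 was the gene of the set with the smallest p against placebo for 16α-LE2 and is a direct Smad target. The sequence is from RefSeq (GRCm38.p6, plus strand, chr4:136143572-136143821), and capitals mark the 4-base Smad element GTCT on either strand.
Id3: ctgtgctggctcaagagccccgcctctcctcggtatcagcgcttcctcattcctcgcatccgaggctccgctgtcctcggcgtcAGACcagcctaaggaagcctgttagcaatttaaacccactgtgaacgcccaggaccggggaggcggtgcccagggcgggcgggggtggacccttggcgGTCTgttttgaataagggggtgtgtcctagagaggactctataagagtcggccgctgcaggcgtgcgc
The element occurs at 2 places, at positions -166 and -68 from the start, and 82.9% of 32851 promoters of this length hold at least 1 such match. Of the 10 genes, 6 had an entry in the promoter table, namely Eng, Bmpr2, Bmp4, Bmp6, Smad6 and Id3. The GC-rich Smad site GGCGCC was found in Bmpr2 alone among these 6, at position -105 from the start, and in 9.59% of all promoters. The estrogen response element GGTCANNNTGACC and its extended single arm AGGTCA, searched on both strands, matched none of the 6 windows and 0.0639% and 14.0% of all promoters. The AGGTCA search can overlap the full element, and a match or its absence in this window says nothing of binding.

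Counted over the set, no gene passed the adjusted threshold of 0.05 in any of the 6 comparisons. With 16α-LE2 against placebo, 0 of the 10 genes were called, beside 0.223% of all tested genes (27 genes). Of the 10, 1 gene, Id3, had an unadjusted limma p under 0.05, beside 9.01% of all genes. Limma shares its spread over all groups, so E2 replicate 33 also enters here. Without it 2 of the 10, Id3 and Bmp6, had such a p (limma, unadjusted p = 0.0209 and 0.0399), beside 12.9% of all genes. With E2 against placebo, 0 of the 10 were called beside 0% of all genes, and of the 9 genes other than Tmem100, 2 (Id1 and Id3) had an unadjusted limma p under 0.05, beside 9.63% of all genes. Neither had one without E2 replicate 33 (limma, unadjusted p = 0.0848 and 0.113), beside 4.95% of all genes. In the beta-titled group against placebo, 0 of the 10 were called beside 0% of all genes, with 0 genes of the set and 5.7% of all genes under an unadjusted p of 0.05. Without E2 replicate 33 the latter were 0 genes of the set and 10.5% of all genes.

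In direction, 9 of the 10 genes had a lower mean than placebo with 16α-LE2 and 9 of 10 with E2, and 8 of 10 did in the beta-titled group. Over all genes 59.7%, 57.1% and 62.6% were lower in these comparisons, which share the placebo arrays. The median difference of the 10 genes was -0.13 with 16α-LE2, -0.18 with E2 and -0.09 in the beta-titled group, against -0.03, -0.03 and -0.04 over all genes. These counts include Tmem100, which was chosen for its low E2 values. Without it, 8, 8 and 7 of 9 genes were lower and the medians were -0.10, -0.16 and -0.08. With E2 replicate 33 left out too, 7 of 9 genes were lower with E2, at a median of -0.05, and 50.9% of all genes were lower.

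**Figure D2:**
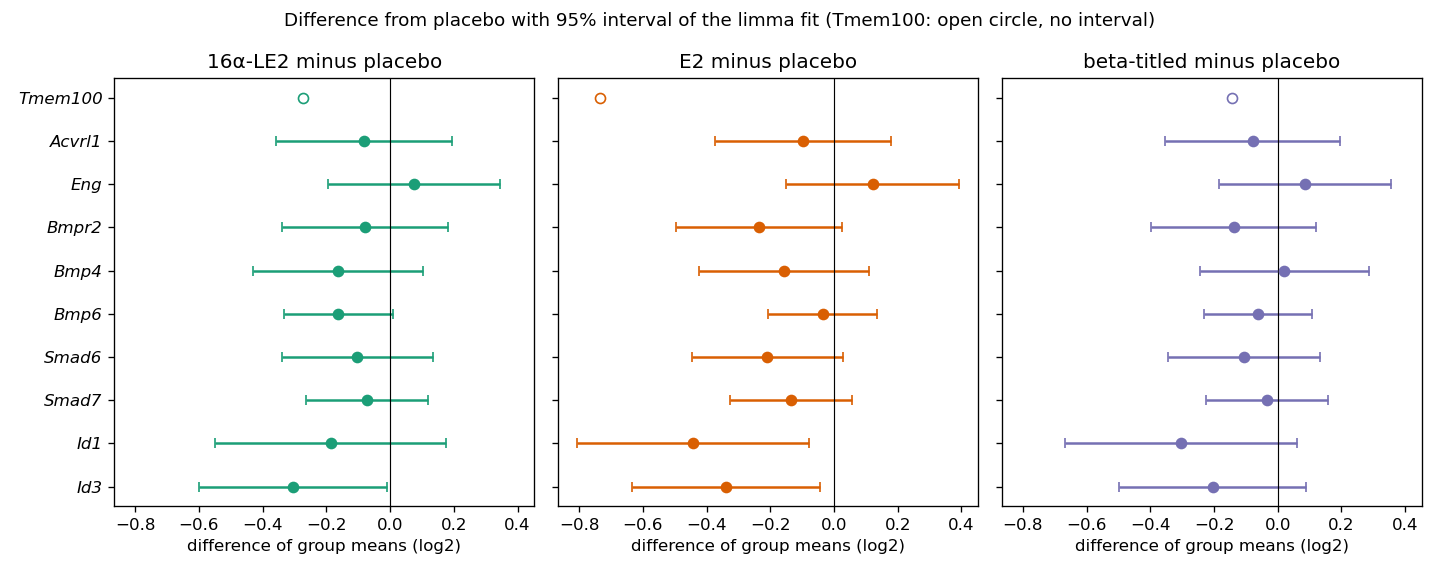
Difference of group means from placebo (x axis, log2 units) for each of the 10 genes, with 16α-LE2, E2 and the beta-titled group in panels from left to right. Bars are 95% intervals of the limma fit over 20 arrays, and Tmem100 is an open circle with no interval because the E2 comparison chose it. Only Id3 with 16α-LE2, and Id1 and Id3 with E2, have intervals that exclude 0 before adjustment.

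Set against each other at equal duration, with doses not given, 16α-LE2 and E2 differed most for Tmem100, by 0.46 log2 units, and this was 0.43 without E2 replicate 33. The E2 arrays took part in choosing the gene, so no test is given. For Id1 the difference of 16α-LE2 minus E2 was 0.26 with a 95% interval of -0.11 to 0.62, and for Id3 it was 0.03 with an interval of -0.26 to 0.33. Both intervals include 0, and neither shows that the agonists act alike on these genes. For Bmpr2 the difference was 0.16 (interval -0.10 to 0.42), for Bmp6 -0.13 (-0.30 to 0.04) and for Bmp4 -0.01 (-0.27 to 0.26). Without E2 replicate 33 these values were 0.12 for Id1, -0.09 for Id3, 0.07 for Bmpr2, -0.17 for Bmp6 and -0.16 for Bmp4. Acvrl1, Smad6 and Smad7 were at 0.02, 0.11 and 0.06 with all arrays, and at -0.04, -0.00 and -0.02 without that one. In limma 0 of the 10 genes were called beside 0.0166% of all genes, and 0 of the 9 other than Tmem100 had an unadjusted p under 0.05, beside 5.19% of all genes. Bmp6 had one without E2 replicate 33 (limma, unadjusted p = 0.0472), beside 6.24% of all genes.

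With 16α-LE2 against the beta-titled group, 0 of the 10 genes were called beside 0.174% of all genes, with 0 of the set and 5.6% of all genes at an unadjusted limma p under 0.05. With E2 against the beta-titled group, 0 of the 10 were called beside 0% of all genes, and 0 of the 9 other than Tmem100 had an unadjusted p under 0.05, beside 3.83% of all genes. Tmem100, whose E2 arrays chose it, differed there by -0.59 log2 units, and by -0.56 without E2 replicate 33. Id1 differed by 0.12 with 16α-LE2 and -0.14 with E2, and Id3 by -0.10 and -0.13. Both genes differed by -0.01 with E2 when E2 replicate 33 was left out, and Acvrl1 and Smad6 by 0.04 and 0.01, against -0.02 and -0.10 with all arrays.

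Beyond the set, 67 other genes of the BMP pathway and of the related TGF-β and activin signals were listed by role, of which 47 lay above the filter. With 16α-LE2, 10 of the 47 were higher and 37 lower than placebo, 1 was called, and 12 had an unadjusted p under 0.05, all lower. Of all tested genes, 59.7% were lower there, 0.223% were called and 9.01% had an unadjusted p under 0.05. Without E2 replicate 33, which enters the shared spread, 15 of the 47 and 12.9% of all genes had such a p. With E2, 17 were higher and 30 lower, 0 were called in limma, and 1 higher and 7 lower had an unadjusted p under 0.05, or 1 and 4 without replicate 33. Of all genes, 57.1% were lower with E2 and 9.63% had an unadjusted p under 0.05, or 50.9% and 4.95% without that array. The beta-titled group had 18 higher, 29 lower, 0 called and 1 with an unadjusted p under 0.05, where 62.6% of all genes were lower and 5.7% had such a p. Without E2 replicate 33, 4 of the 47 and 10.5% of all genes had such a p there. The median difference was -0.08, -0.06 (-0.02 without E2 replicate 33) and -0.04 in these comparisons, against -0.03, -0.03 and -0.04 over all genes.

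The called gene was Fstl1, which encodes a secreted glycoprotein that antagonises BMP4 in developing mouse lung. Its values were 9.30, 9.43, 9.69, 9.53 and 9.67 with 16α-LE2 and ran from 9.87 to 10.12 with E2. They were 10.35, 10.23, 10.42, 10.13 and 10.26 in the beta-titled group and 10.57, 10.28, 10.69, 9.89 and 10.05 with placebo. All 5 16α-LE2 arrays lay below every array of the other groups, and 3.28% of all tested genes had no overlap between 16α-LE2 and placebo.

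Fstl1 fell by 0.77 ± 0.13 log2 units (SE) with 16α-LE2 against placebo (limma, adjusted p = 0.00733) and by 0.75 ± 0.13 against the beta-titled group (limma, adjusted p = 0.00878). With E2 the difference from placebo was -0.32 (limma, adjusted p = 0.499), and 16α-LE2 minus E2 was -0.45 with a 95% interval of -0.71 to -0.19 (limma, adjusted p = 0.47). Both values were the same without E2 replicate 33. The calls were lost with the replicate number as a block (limma, adjusted p = 0.0552 and 0.111). All 10 fibroblast markers had a lower mean with 16α-LE2 than with placebo, where 59.7% of all genes were lower. The differences ran from -1.48 to -0.00, and Tcf21 averaged 8.53 in both groups. Col3a1 was called at -1.48 ± 0.20 (limma, adjusted p = 0.0011). The mean log2 level of these markers was 9.52 to 9.67 with 16α-LE2 and 9.74 to 10.33 with placebo. Their mean linear signal overlapped, at 1750 to 2040 with 16α-LE2 and 1790 to 2970 with placebo. Their part in the Fstl1 result was not tested.

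None of the following pathway genes passed the adjusted threshold. Among receptors, Bmpr1a and Acvr1, both BMP type I receptors, differed from placebo by -0.32 and -0.20 with 16α-LE2, and Tgfbr1, the TGF-β type I receptor, by -0.29 with E2 (-0.19 without replicate 33). Among signal carriers, Smad1 and Smad5, which ALK1 phosphorylates, differed by -0.38 and -0.26 with 16α-LE2, and Smad2 by -0.20. Smad1 was at 9.48 in placebo replicate 33, against 8.55 to 8.72 in the other placebo arrays. Its difference was -0.20 at the smallest with 1 array left out. All 5 tested signal Smads had a lower mean than placebo with 16α-LE2, 3 of them with an unadjusted p under 0.05, and 4 of 5 did with E2, none with an unadjusted p under 0.05. The 5 were Smad1, Smad4 and Smad5, with Smad2 and Smad3 of the TGF-β branch, and Smad2 was among the 3. Over all genes 59.7% and 57.1% were lower in these comparisons, and 9.01% and 9.63% had an unadjusted p under 0.05.

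Among target genes, Klf2, a transcription factor induced by blood flow, differed from placebo by -0.48 ± 0.15 (SE) with 16α-LE2 (limma, adjusted p = 0.207) and -0.48 ± 0.15 with E2 (limma, adjusted p = 0.499). Klf4, its relative, was at 8.21 to 9.22 with E2 and 9.25 to 9.58 with placebo, a difference of -0.66 ± 0.14 (limma, adjusted p = 0.275), and at 8.93 to 9.40 with 16α-LE2. For 16α-LE2 minus E2, Klf4 differed by 0.49 (limma, adjusted p = 0.487), close in size to the Tmem100 value. Without E2 replicate 33 the E2 differences from placebo were -0.42 for Klf2 and -0.53 for Klf4, and 16α-LE2 minus E2 was 0.35 for Klf4. Efnb2, an arterial ligand, differed from placebo by -0.26 with 16α-LE2 and -0.21 with E2 (-0.15 without replicate 33), and Id2, another Id gene, by -0.26 and -0.05.

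Among inhibitors other than Fstl1, Tob1, which restrains BMP Smads in mouse bone cells, differed from placebo by -0.36 with 16α-LE2 and -0.41 with E2, and Skil, a Smad co-repressor, by -0.36 with E2. These E2 values were -0.28 for Tob1 and -0.25 for Skil without E2 replicate 33. Of 10 other genes of the ligand list with a probe set, 4 lay above the filter. Gdf2, which encodes the ALK1 ligand BMP9, differed from placebo by -0.01 with 16α-LE2 and -0.03 with E2. Bmp1, which despite its name encodes a procollagen proteinase, differed by -0.06 in both. Inhba and Inhbb, which encode subunits of activins and inhibins, differed by -0.03 and 0.06 with 16α-LE2 and by 0.08 and 0.01 with E2. Bmp10, the other high-affinity ALK1 ligand, lay below the filter.

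**Figure D3:**
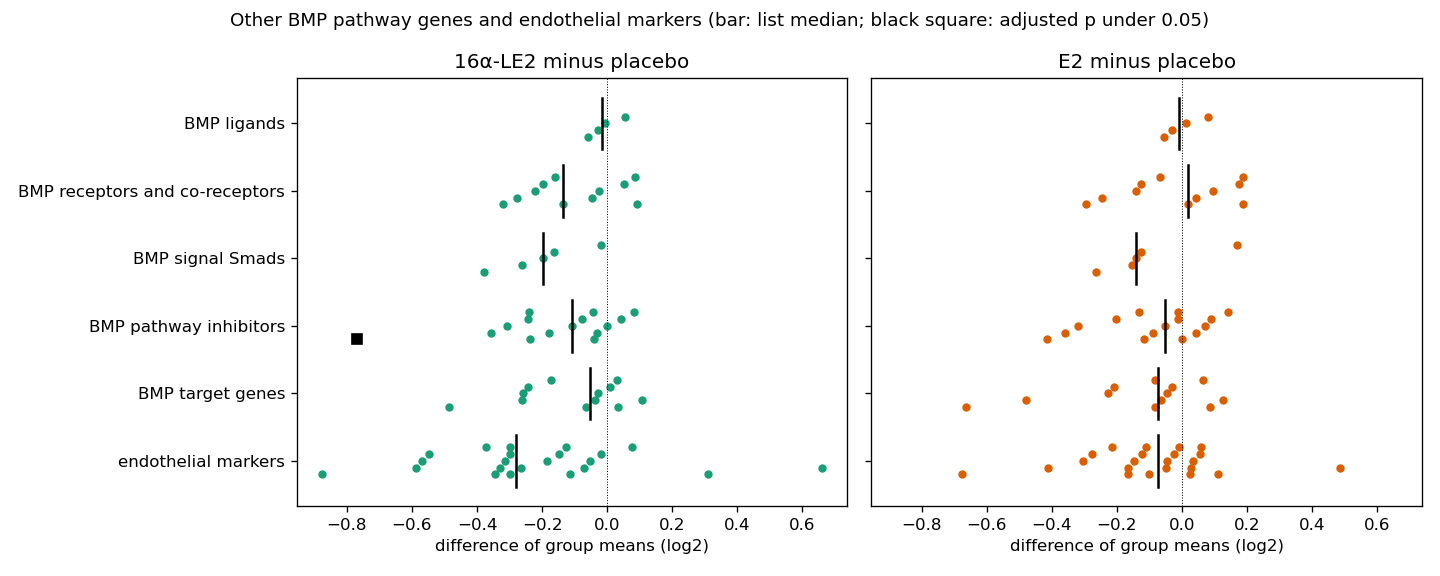
Difference from placebo (x axis, log2 units) of each tested gene in 5 lists of other BMP pathway genes and in the endothelial markers, with 16α-LE2 on the left and E2 on the right. Each point is a gene, the bar is the list median, and the black square marks the 1 gene called, Fstl1. The median of the 22 endothelial markers is at -0.28 with 16α-LE2 and at -0.07 with E2.

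Endothelial markers had a lower median difference from placebo with 16α-LE2 than with E2, although none passed the adjusted threshold. Of 22 markers, all above the filter, 19 had a lower mean with 16α-LE2 than with placebo, 14 had an unadjusted limma p under 0.05 (12 lower and 2 higher), 0 were called, and the median difference was -0.28. With E2, 15 of 22 had a lower mean, 3 had an unadjusted p under 0.05, 0 were called and the median was -0.07, or -0.02 without replicate 33. Of all genes, 59.7% and 57.1% were lower in these comparisons, 9.01% and 9.63% had such a p, and 0.223% and 0% were called. For 16α-LE2 minus E2, 17 of 22 were lower, 6 had an unadjusted p under 0.05, 0 were called and the median was -0.15, where 56.3% of all genes were lower and 5.19% had such a p. Without E2 replicate 33, 19 were lower, 7 had such a p and the median was -0.21. Of all genes, 62.8% were lower and 6.24% had such a p without that array. Those of smallest p with 16α-LE2 were Tek, the angiopoietin receptor, at -0.57 ± 0.14 (SE; limma, adjusted p = 0.0788), Vwf, the clotting carrier of endothelium, at 0.66 ± 0.16 (limma, adjusted p = 0.0852), Cd34 at -0.59 ± 0.15 (limma, adjusted p = 0.098) and Aqp1 at -0.55 ± 0.14 (limma, adjusted p = 0.134). Klf2 and Klf4 are not in this marker list.

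The mean linear signal per endothelial marker was 1220 to 1360 with 16α-LE2, 1300 to 1590 with E2, 1330 to 1530 in the beta-titled group and 1470 to 1700 with placebo. Fabp4, the highest marker at a mean of 13.95 log2 units, weighs most in this signal. The group means of the log2 values were 9.21 with 16α-LE2, 9.33 with E2, 9.37 in the beta-titled group and 9.42 with placebo. The order of groups thus differed from that of Tmem100, which was lowest with E2, while the markers were lowest with 16α-LE2. In 16α-LE2 replicate 29 and beta-titled replicate 31, the arrays low for Tmem100, the signal per marker was 1320 and 1450, inside the range of each group. On the mean log2 scale the same arrays were the highest of their groups, at 9.38 of 9.07 to 9.38 with 16α-LE2 and at 9.52 of 9.28 to 9.52 in the beta-titled group. The part of endothelial content in the Tmem100 values was not tested.

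**Figure D4:**
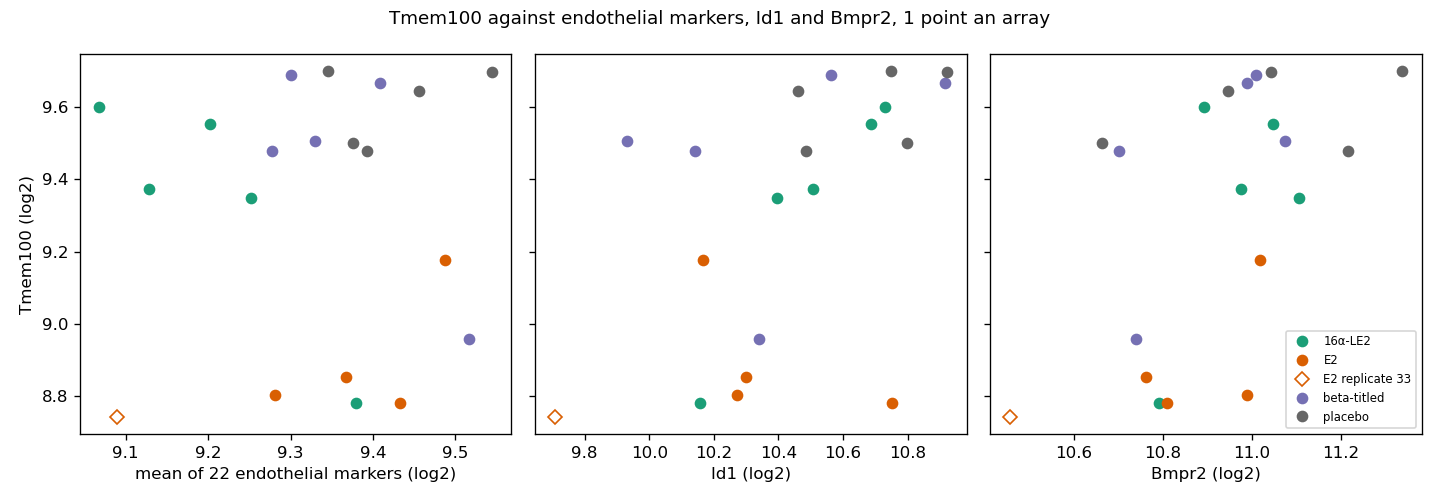
Tmem100 (y axis, log2) against the mean log2 value of 22 endothelial markers (left), Id1 (middle) and Bmpr2 (right) in 20 arrays, 1 point an array, coloured by group with E2 replicate 33 as an open diamond. Arrays with low Tmem100 (8.74 to 9.18) span most of the range of the endothelial mean, from 9.09 in E2 replicate 33 to 9.52 in beta-titled replicate 31.

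Markers of other cell types were compared in the same way. Cardiomyocyte markers had a mean linear signal of 18000 to 19200 with 16α-LE2 and 17500 to 23300 with E2 (17500 to 20000 without replicate 33), against 17000 to 21100 with placebo. Red blood cell markers were at 403 to 1160 with 16α-LE2 and 343 to 405 with E2, against 303 to 458 with placebo, and Slc4a1, the red cell anion exchanger, was called with 16α-LE2 at 0.57 (limma, adjusted p = 0.0256). Atrial markers were at 828 to 1710 with 16α-LE2 and 863 to 2340 with E2 (1100 to 2340 without replicate 33), against 938 to 1360 with placebo. Smooth muscle and pericyte markers were at 1680 to 1920 with 16α-LE2 and 1820 to 2140 with E2, against 1830 to 2440 with placebo, and 4 of 9 had an unadjusted limma p under 0.05 with 16α-LE2, all lower. These were Rgs5 (-0.33), Kcnj8 (-0.38), Pdgfrb (-0.34) and Acta2 (-0.38), and 0 of the 9 were called. Of all tested genes, 9.01% had such a p there. The means of 3 of the 9 were higher with 16α-LE2 than with placebo. They were Myh11 (7.58 against 7.28), Tagln (9.59 against 9.48) and Cnn1 (7.60 against 7.53). Macrophage markers were at 1080 to 1380 with 16α-LE2 and 1040 to 1540 with E2, against 787 to 1940 with placebo. Lymphatic markers were at 270 to 427 with 16α-LE2 and 318 to 435 with E2, against 273 to 411 with placebo. With 16α-LE2, 2 of 4 had an unadjusted limma p under 0.05, Prox1 at -0.29 and Pdpn at -0.22, while Lyve1 (0.23) and Flt4 (0.08) were higher. Endocardial markers were at 360 to 447 with 16α-LE2 and 396 to 458 with E2, against 326 to 510 with placebo. Lung markers, of which Sftpc, Sftpa1, Scgb1a1 and Cldn18 lay below the filter, were at 116 to 130 with E2, against 121 to 131 with placebo. The part of any of these in the values of the 10 genes was not tested.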

How the data were processed

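Total RNA (100 ng per sample, biotin-labelled, per the labels' protocols) was measured on Affymetrix mouse arrays. The authors deposited 1 log2 value for each of 45101 probe sets and array. The unit was read from the values (5.07 to 15.31), and no source used here gives the summarization software, normalization or log base, so folds rest on that reading. Probe sets were named from the platform annotation: 34945 have 1 symbol, 932 several and 9160 none, and 64 controls were left out. Each gene was represented by its single-symbol probe set of highest mean, and genes with a mean above 6.93, which is the median probe set mean, were tested. Second probe sets of 5 of the 10 genes are given beside the main ones.

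All 20 arrays, grouped by title, were fitted with limma 3.58.1 in R 4.3.3 (group means, eBayes with an intensity trend). Adjusted p is Benjamini-Hochberg over 12082 genes, called under 0.05, in 6 comparisons. The number of arrays limits the precision: the median half-width of the 95% interval was 0.209 log2 units for 16α-LE2 minus placebo. On simulated data for that comparison (200 of 12082 genes changed, 10 runs), 56.5% of changes of 0.4 and 95% of changes of 0.8 log2 units were recovered, and 4.48% of calls were false. The arrays hold no duplicate columns. Replicate numbers did not pair the samples (17 same-numbered pairs, r -0.35 to 0.51, 6 over 0.1).

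The 10 genes, the pathway lists and the marker lists were chosen with earlier results of these data known. Named genes are the 10 genes, any called gene of a list and up to 4 of smallest p in a comparison, and the 5 genes of highest and of lowest Pearson r with Tmem100. From each list not all such genes are printed. Alternatives covered the filter, probe set summary, quantile normalization, array weights, the groups fitted, the intensity trend, the replicate block and each array left out. Figures were drawn with matplotlib 3.10.9.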

Additional observations from a re-analysis of the deposited data

Results flagged for a closer look

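Tmem100 in E2 replicate 30, at 9.18, stood apart from the other 4 E2 arrays. The nearest was 8.85 and the lowest 8.74, a gap of 0.745 of the group's range, against a critical value of 0.71 for 5 arrays by Dixon's test. Over the 10 genes and 4 groups, 40 sets of 5 arrays were looked at and 1 was found. Chance gives such a gap in about 5% of sets, so 1 in 40 is no more than chance gives. The E2 values of Tmem100 also took part in choosing the gene, so the gap is a description and nothing is read from it.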

How the results depend on the processing

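The 92 differences of named genes were recomputed under up to 27 alternatives, and 2443 of 2483 values kept their direction and their side of the threshold. Counted over the 10 genes in each of the 6 comparisons, none was called under these alternatives, with 1 exception. Without 16α-LE2 replicate 29, the count for E2 minus placebo was 1. That gene was Tmem100, in the comparison that chose it, so nothing is read from this count.

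Among these values the sign turned in 20, none larger than 0.09. For 16α-LE2 minus placebo these were Acvrl1 at 0.07 with the replicate block, Eng at -0.01 with array weights and Bmpr2 at 0.05 with quantile normalization. For E2 minus placebo it was Bmp4 at 0.02 with array weights. For the beta-titled group minus placebo they were Acvrl1 at 0.01 with averaged probe sets, Bmpr2 at 0.04 with quantile normalization and Bmp4 at -0.03 with the replicate block. Id3 was at -0.09 for 16α-LE2 minus E2 with array weights and at 0.02 for 16α-LE2 minus beta-titled with the replicate block. With 1 array left out, Acvrl1 ran from -0.19 to 0.06 with 16α-LE2, from -0.20 to 0.05 with E2 and from -0.18 to 0.07 in the beta-titled group, each against placebo, the highest without placebo replicate 36. Bmp6 ran from -0.07 to 0.00 with E2, and Smad7 from -0.07 to 0.00 and Bmp4 from -0.01 to 0.06 in the beta-titled group. Id3 ran from -0.09 to 0.12 for 16α-LE2 minus E2, and Tmem100 from -0.25 to 0.01 for 16α-LE2 minus beta-titled. The cause was not tested.

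Over all genes, 27 were called for 16α-LE2 minus placebo, 8 to 74 with 1 array left out and 16 to 357 under the other alternatives, with 74 without E2 replicate 33, 8 without placebo replicate 31 and 357 with array weights. Array weights also called Acvr1, Klf2, Efnb2, Id2, Tek, Vwf, Cd34 and Aqp1 there. For 16α-LE2 minus E2, 2 were called, 0 to 11 and 0 to 20 under these, and for 16α-LE2 minus beta-titled 21, 7 to 37 and 15 to 122. The replicate block ended both Fstl1 calls (limma, adjusted p = 0.0552 and 0.111) and changed no other call among the named BMP pathway and endothelial genes. The unstated doses, the 5 arrays per group and the unknown array processing limit what these values can show.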
